A study of Mus musculus with 48 samples.

Results

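IGHV9 is a small family of mouse immunoglobulin heavy-chain variable (V) genes. Its 4 members, IGHV9-1, IGHV9-2, IGHV9-3 and IGHV9-4, were followed here through the heavy-chain B-cell receptor (BCR) repertoires of 48 libraries. A sequence was taken as a member when the gene named in its V call, read up to the allele mark, was 1 of these 4. They accounted for 197442 of 4834214 deposited sequence records (4.08%), and for 4 of the 148 V genes called. In the lacrimal gland (LG), the gland that makes the watery part of tears, they held 6389 of 188868 records (3.38%), and in the spleen 191053 of 4645346 (4.11%). The family was chosen because 2 IGHV9-3 clonotypes joined to IGHJ4 recurred across spleens of 1 group. Recurrence in the spleen and pairing with IGHJ4 are therefore described without a test.

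The study asked how gut bacteria from mice with a Sjögren-like disease change the B-cell repertoire of recipients. All recipients were C57BL/6 (B6) mice, and LG and spleen came from the same animal. The NOD-FMT group (n = 10) received antibiotics in the drinking water for 7 days and then, from 5 weeks of age, a daily gavage for 3 weeks of a fecal suspension pooled from 30 NOD.B10.H2b donors older than 20 weeks. The PBS-T group (n = 9) received the same antibiotics and gavages of phosphate-buffered saline, and the NC group (n = 5) was untreated. Before the antibiotics, the study mixed feces between the cages of B6 mice for 7 days. Because 1 donor pool served all NOD-FMT mice, they do not sample different donors. NC mice differed from PBS-T mice in antibiotics and gavage together. The sources used here do not give the age of NC mice or say whether their cages were part of the mixing.

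An antibody heavy chain is assembled in a developing B cell by joining 1 V, 1 D and 1 J gene. The third complementarity-determining region (HCDR3) lies across this junction, where bases are trimmed and added, and it is the most diverse stretch of the chain. Naive B cells carry IgM and IgD. After activation a B cell may switch to IgG, IgA or IgE and acquire mutations in the V gene. The lacrimal gland is a mucosal site known for plasma cells that make IgA for the tears. A clonotype here is 1 combination of V gene, J gene and HCDR3 amino acid sequence, a count is 1 consensus sequence of reads that share a molecular tag, and a clonotype was called class-switched when it had at least 1 count of IgG, IgA or IgE.

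On chromosome 12 of the GRCm38 assembly, also named mm10, the 4 genes are transcribed from the minus strand. IGHV9-1 spans 114093928 to 114094358, IGHV9-2 114109001 to 114109430, IGHV9-3 114140692 to 114141122 and IGHV9-4 114299961 to 114300389. The intervals between them are 14642, 31261 and 158838 bases long, so IGHV9-4 lies farthest from the other members and from the J genes, of which IGHJ4 spans 113428514 to 113428567. Each member has 2 exons, a short one for most of the leader peptide and a second that holds the V region of 294 bases. Identity between members over the V region ran from 89.5% (IGHV9-1 against IGHV9-4) to 95.9% (IGHV9-1 against IGHV9-2), and 39 of the 294 positions varied. Positions 90 to 149 of the V region, counted from 1 at its first base, hold 20 of these and are shown because they tell the members apart. Sequences are from the GENCODE M21 transcripts of the GRCm38 assembly, and capitals mark positions at which at least 1 member differs:
IGHV9-1: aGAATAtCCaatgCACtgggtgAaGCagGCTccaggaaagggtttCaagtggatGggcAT
IGHV9-2: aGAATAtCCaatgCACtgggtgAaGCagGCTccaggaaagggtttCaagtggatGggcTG
IGHV9-3: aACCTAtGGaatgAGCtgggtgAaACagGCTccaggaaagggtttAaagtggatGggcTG
IGHV9-4: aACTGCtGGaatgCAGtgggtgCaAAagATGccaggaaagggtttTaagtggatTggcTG
In this window IGHV9-1 and IGHV9-2 share all but the last capitals, whereas IGHV9-4 differs from the others at many of them. Over the whole V region a call of IGHV9-1 against IGHV9-2 rests on 12 positions, and one of IGHV9-4 against any other member on at least 24.

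One forward primer of the study's set of 35 matches the family. It is shown because levels are compared between members only with its mismatches in view:
primer: cagatccagttggtgcagtctg
The primer pairs with the first 22 bases of the V region. It matched IGHV9-1 and IGHV9-4 at every base, whereas IGHV9-2 carries G12C and IGHV9-3 carries G15A (the primer's base, the position from its 5′ end, the gene's base). Any other primer of the set had at least 3 mismatches to a member. The part of these mismatches in the levels of different members was not tested.

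Before any comparison, a nucleotide sequence that recurred in more than 2 mice within 1 tissue was dropped. The study removed such sequences to guard against possible cross-contamination between samples. This left 40605 clonotypes in LG, 1471 of them IGHV9, and 3464316 in the spleen, 159701 of them IGHV9. The removal took 13563 of 68557 IGHV9 counts from LG (19.8%) and 73595 of 457061 from the spleen (16.1%), against 9.83% and 9.84% of the counts of all genes. Most of these IGHV9 counts came from 1 mouse in each tissue, 12859 from PBS-T 5 in LG and 45873 from NOD-FMT 3 in the spleen. In NOD-FMT 3, 40902 belonged to 1 clonotype, IGHV9-4/IGHJ3 ARGGDYSWFAY. LG libraries held 40105 to 264365 counts (median 78427) and spleen libraries 71859 to 2032338 (median 388515). 1 LG stood apart: PBS-T 5 had 17213 clonotypes of all genes, 832 of them IGHV9, against at most 41 IGHV9 clonotypes in any other gland, and it shared IGHV9 nucleotide sequences with 13 of the 23 other glands. PBS-T 5 shared the most with NC glands (19, 11, 29, 27 and 19 sequences with NC 1 to 5) and PBS-T 7 (18). With a NOD-FMT gland it shared at most 4. Among the other glands, 200 of 253 pairs shared none, and the largest number was 22, between NC 2 and NC 3. The part of this sharing in the comparisons with NC was not tested. The share of a gland's IGHV9 clonotypes that was also found in the same mouse's spleen had a median of 35.0%, against 2.32% for the spleens of other mice. The own spleen exceeded the mean over the other mice's spleens in 23 of 24 mice, and PBS-T 6, with 0 of 31, was the exception. Against the single highest other spleen, the own spleen held fewer also for NC 2 (8 against 13 clonotypes) and PBS-T 5 (20 against 25).

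IGHV9 usage in LG was lower in NOD-FMT mice than in either other group. Its share of clonotypes was 1.25% at the lowest, 1.84% at the median and 3.22% at the highest in the 10 NOD-FMT glands, and 2.66%, 3.92% and 4.83% in the 9 PBS-T glands. The 5 NC glands had 3.45%, 3.58%, 3.78%, 3.97% and 4.23%. All 10 NOD-FMT glands lay below the lowest NC gland and 8 of 10 below the lowest PBS-T gland, while PBS-T and NC overlapped. The means were 2.02% ± 0.66 (SD, n = 10), 3.76% ± 0.70 (n = 9) and 3.801% ± 0.31 (n = 5), and without PBS-T 5 the PBS-T mean was 3.63% ± 0.61 (n = 8).

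**Figure D1:**
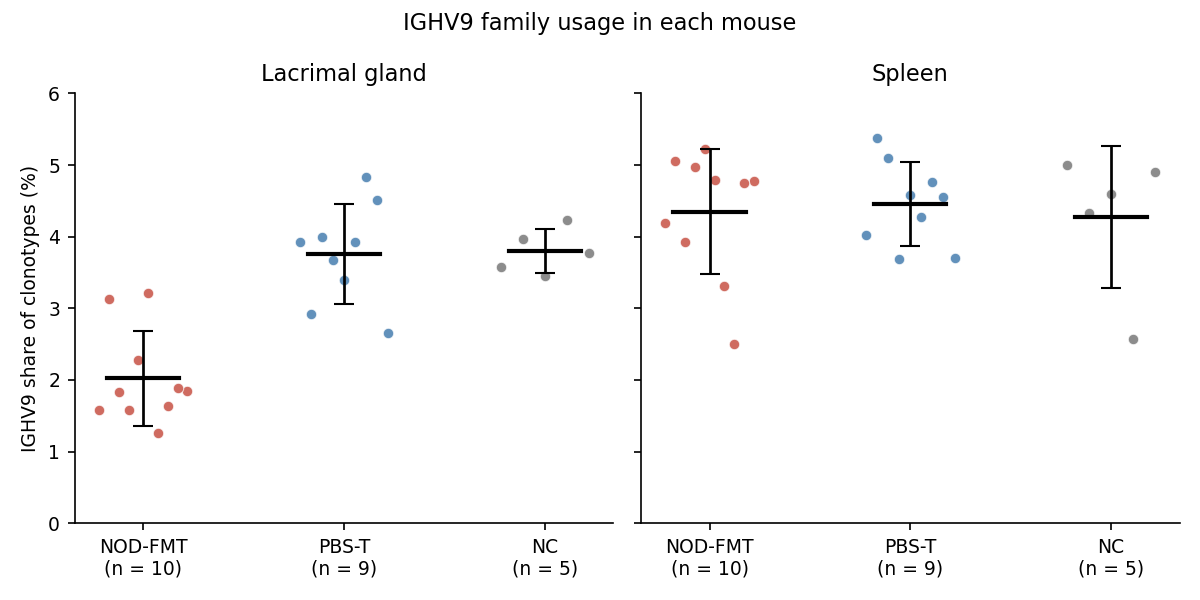
Share of all clonotypes (percent, y axis) that used an IGHV9 member in each library, by group and tissue, with 1 point a mouse and the group mean with its SD. In LG the NOD-FMT points centre on 2.02% and those of PBS-T and NC on 3.76% and 3.801%, whereas in the spleen the 3 groups overlap.

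The log2 difference in LG between NOD-FMT and PBS-T was −0.94 ± 0.20 (SE), or 1.92-fold lower (edgeR quasi-likelihood test, Benjamini-Hochberg adjusted p = 3.9e-04). Of the 16 families tested 18.8% passed in either direction, and 12.5% passed as lower. The others that passed were IGHV3, lower by a log2 difference of −0.78, and IGHV10, higher at 1.02. Without the dropping of shared sequences the IGHV9 difference was −0.96 (adjusted p = 1.5e-04). Against NC the IGHV9 difference was −0.94 ± 0.23 (adjusted p = 0.00287), in a comparison in which 25% of families passed. This comparison and the first share the NOD-FMT libraries. Between PBS-T and NC no family of 16 passed (0%): 1 had an unadjusted p below 0.05 in edgeR and 0 an adjusted one in DESeq2. The IGHV9 difference there was 0.00 (adjusted p = 0.99).

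Other quantities moved with the group in LG. NOD-FMT glands held a median of 144958 counts against 57709 in PBS-T and 75358 in NC, and a mean of 88.7% of their clonotypes of all genes was class-switched, against 74.3% in PBS-T and 87.8% in NC. The part of depth in the usage difference was not tested. In libraries as deposited, fewer cells that use a gene and less heavy-chain RNA per cell cannot be told apart. Restricting the count to class-switched clonotypes, a choice made after the data were seen, gave −0.95 (adjusted p = 0.0021), and to clonotypes with no switched count −0.38 (adjusted p = 0.375). The deposited tables of 11 glands (6 NOD-FMT, 4 PBS-T and 1 NC) were marked as merged, a word the sources do not explain. Within these the difference was −0.89 (adjusted p = 0.109) and within the other 13 glands −1.04 (adjusted p = 0.0141). When counts instead of clonotypes were tested, the difference was −0.32 (adjusted p = 0.725), so the lower usage passed in clonotypes and not in counts. The difference from NC also did not pass in counts, in merged glands or in clonotypes with no switched count.

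Each of the 4 members had a lower fitted clonotype level in NOD-FMT than in PBS-T glands, although IGHV9-3 turned to 0.20 higher in counts, and none passed the test on its own, in a comparison in which 4.26% of 94 genes passed. The median log2 difference of the members was −1.37, against −0.20 over all 94 genes. IGHV9-3, the most used member, made up 1.07% of LG clonotypes at the lowest, 1.196% at the median and 2.99% at the highest in NOD-FMT, and 1.59%, 2.31% and 3.50% in PBS-T (log2 difference −0.67 ± 0.27, adjusted p = 0.160). In the 5 NC glands it ran from 1.47% to 2.56% with a median of 2.27%. Of the NOD-FMT glands 7 lay below the lowest PBS-T gland, and NOD-FMT 5 lay well inside the PBS-T range.

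IGHV9-4 made up 0 to 0.839% of clonotypes in NOD-FMT (median 0.246%, with 0 in 2 glands) and 0.231% to 1.46% in PBS-T (median 0.692%). The log2 difference was −1.44 ± 0.49 (adjusted p = 0.0921), and −1.50 (adjusted p = 0.0414) when shared sequences were kept. With 1 library left out it passed in only 2 of 24 fits. These were without NOD-FMT 8 (−1.70, adjusted p = 0.0294) and without PBS-T 3 (−1.55, adjusted p = 0.0472). It was weakest without PBS-T 5 (−1.17, adjusted p = 0.176). In NC it ran from 0.690% to 1.29% with a median of 0.871%, and against NC the difference passed at −1.76 (adjusted p = 0.0442), in a comparison in which 5.32% of genes passed. The groups overlapped, with the highest NOD-FMT gland inside the range of both others.

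IGHV9-2, the member with the fewest clonotypes, was found in 3 of 10 NOD-FMT glands, 6 of 9 PBS-T glands and 5 of 5 NC glands. Its highest share was 0.150% in NOD-FMT, 0.461% in PBS-T and 0.755% in NC, with medians of 0%, 0.205% and 0.275%. The difference from PBS-T was −2.05 ± 0.76 (adjusted p = 0.110) and that from NC −2.73 (adjusted p = 0.0442), fitted on few clonotypes, so that the size of the fold depends on the prior count. With 1 library left out at a time, the call against NC held in 14 of 24 fits for IGHV9-2 and in 12 of 24 for IGHV9-4. IGHV9-1 ran from 0 to 0.699% in NOD-FMT (median 0.129%), 0.102% to 1.27% in PBS-T (median 0.398%) and 0 to 0.887% in NC (median 0.387%). Its differences were −1.30 ± 0.63 (adjusted p = 0.244) and −0.97 (adjusted p = 0.557), and all 3 groups overlapped. At this depth a 2-fold change in a gene was on average hard to detect. Of genes changed 2-fold in simulated LG libraries the test found 16.7%, and of those changed 4-fold 83.4%. False calls made up 8.33% and 6.4% of the calls. These rates are over 93 genes of unequal usage and are not the rate for a given member.

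**Figure D2:**
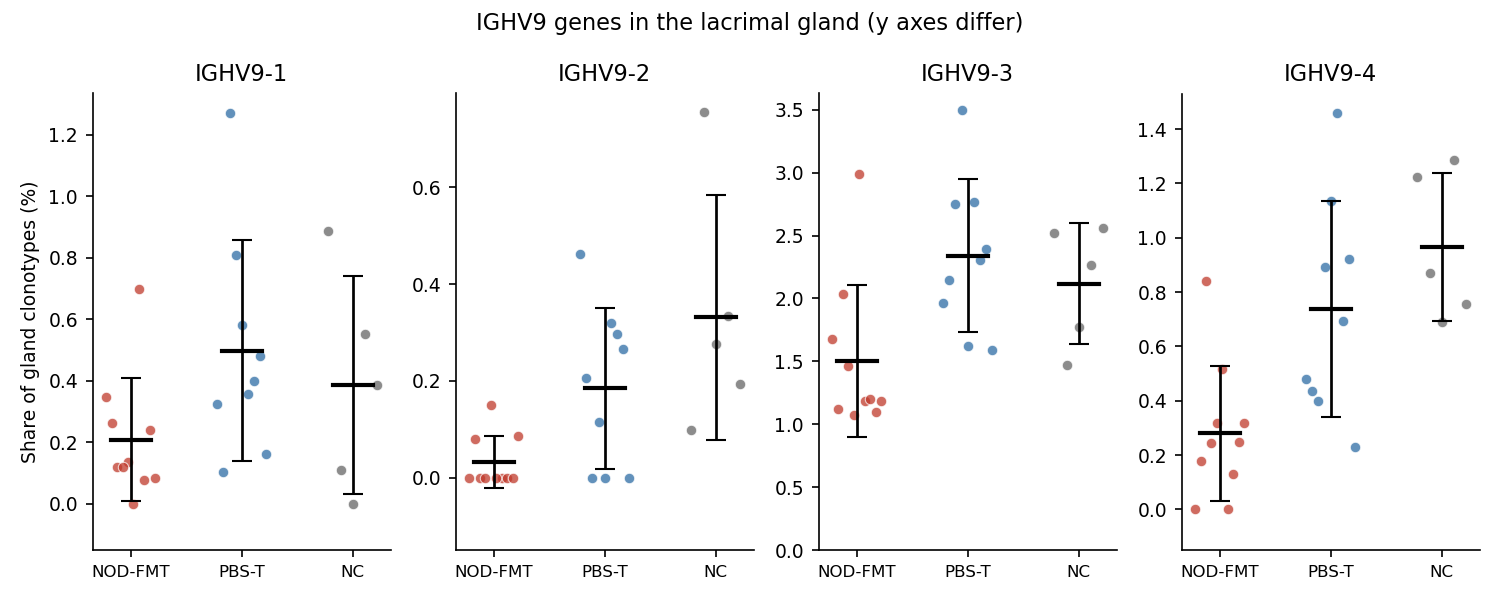
Share of LG clonotypes (percent, y axis) for each IGHV9 member in each mouse, by group, with the group mean and SD, on y axes that differ between panels. IGHV9-3 is the most used member in all groups, and for IGHV9-2 7 of 10 NOD-FMT glands lie at 0.

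In the spleen IGHV9 usage did not separate the groups. The share of clonotypes was 2.50% at the lowest, 4.77% at the median and 5.23% at the highest in NOD-FMT, and 3.69%, 4.56% and 5.37% in PBS-T. The NC spleens had 2.57%, 4.33%, 4.59%, 4.90% and 5.01%. The ranges overlapped almost wholly. The log2 difference between NOD-FMT and PBS-T was −0.03 ± 0.12 (edgeR, adjusted p = 0.937), in a comparison in which none of 15 families passed (0%, with 1 at an unadjusted p below 0.05 and 0 in DESeq2). The differences from NC were 0.02 for NOD-FMT (adjusted p = 0.985) and 0.06 for PBS-T (adjusted p = 0.963), again with 0% of families passing. None of the 4 members passed in any spleen comparison, and 0.901% of 111 genes did between NOD-FMT and PBS-T. Of genes changed 2-fold in simulated spleen libraries the test found 86.4%.

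The tissue difference thus varied with the group. In all mice together the family's share was lower in LG than in the spleen by a log2 difference of −0.57 ± 0.11 (1.49-fold, adjusted p = 1.7e-05), with the mouse as a block, in a comparison in which 43.8% of 16 families passed. Among those that passed were the IGHV9 calls outside the 4 members, higher in LG at 9.96. With clonotypes of at least 2 counts only, the difference of the 4 members together was −0.16 (adjusted p = 0.314). The share was lower in LG in 10 of 10 NOD-FMT, 8 of 9 PBS-T and 4 of 5 NC mice. The test of the difference between groups, an interaction of tissue and group, gave −0.88 ± 0.21 (1.84-fold, adjusted p = 0.00113), and 25% of families passed it. It was −0.92 (adjusted p = 0.0375) in mice with merged glands, −0.85 (adjusted p = 0.0608) in the others, and −0.57 (adjusted p = 0.578) in counts. None of the members passed this interaction alone, with adjusted p between 0.20 and 0.29 while 3.64% of 110 genes passed.

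Between tissues the members were tested 1 at a time and not against each other. IGHV9-1 was lower in LG by −1.28 (adjusted p = 8.6e-05) and IGHV9-3 by −0.60 (adjusted p = 1.5e-04), whereas IGHV9-2 (−0.73, adjusted p = 0.0593) and IGHV9-4 (0.08, adjusted p = 0.786) did not pass. For IGHV9-4 the sign changed with the processing, to −2.78 (adjusted p = 0.00112) in counts. Of 110 genes 35.5% passed this comparison. By number of clonotypes pooled over libraries IGHV9-3 ranked 5th of 136 V genes in the spleen and 11th of 141 in LG, IGHV9-1 44th and 67th, IGHV9-4 53rd and 42nd, and IGHV9-2 71st and 77th. PBS-T 5 gave 251 of the 372 LG clonotypes of IGHV9-4, and without this mouse the fitted tissue difference of IGHV9-4 was −0.019 (adjusted p = 0.955). As a whole the family ranked 5th of 16 in the spleen, at a mean share of 4.37%, and 9th in LG, at 3.04%. Here too the IGHV9 calls outside the 4 members were counted as 1 of the 16.

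Across the 24 spleens IGHV9-2 and IGHV9-3 rose and fell together most closely, with Pearson r = 0.97 between their log2 shares. Among 97 genes compared, IGHV8-8 (r = 0.91) and IGHV8-6 (r = 0.90) came next for IGHV9-2, and IGHV8-8 (r = 0.89) and IGHV1-5 (r = 0.87) for IGHV9-3. IGHV9-1 was most like IGHV15-2 (r = 0.73), IGHV5-16 (r = 0.71) and IGHV9-4 (r = 0.70). IGHV9-4 was most like IGHV15-2 (r = 0.86), IGHV8-6 (r = 0.82) and IGHV9-2 (r = 0.80). These values are descriptions over 24 libraries of unequal depth, in which all shares of 1 library have the same denominator.

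IGHV9 clonotypes were mostly class-switched in LG and mostly not in the spleen. In LG the class-switched share was 63.6% at the lowest, 82.0% at the median and 95.7% at the highest in NOD-FMT, 35.9%, 63.2% and 91.3% in PBS-T, and 70.7%, 74.3%, 88.6%, 89.5% and 100% in the NC mice. The PBS-T glands covered the widest range, and most NOD-FMT and NC glands lay in its upper part. The means of 80.9% ± 10.03 and 68.0% ± 18.9 differed by 12.9 percentage points without passing (2-sided exact permutation test over 92378 splits, p = 0.0755, adjusted p = 0.0944), while 40% of 10 families passed. In merged glands the difference was 17.3 points (adjusted p = 0.0393) and in the others 11.2 (adjusted p = 0.503). In the spleen the means were 4.15% ± 1.81 and 5.33% ± 2.02 (exact permutation test, adjusted p = 0.721), and 0% of 15 families passed. Within mice, LG exceeded the spleen in 24 of 24, with means of 76.9% ± 15.5 and 4.65% ± 2.12 (permutation by sign flips, p = 1e-05, which is the smallest possible value with 100000 resamples). All 11 families tested (100%) passed this comparison.

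IgA, the class of tear antibodies, was the leading class of IGHV9 clonotypes in LG. Clonotypes with IgA made up 74.6% ± 11.8 in NOD-FMT, 59.0% ± 19.6 in PBS-T and 78.1% ± 11.4 in NC, and those with IgM 19.3% ± 10.01, 31.4% ± 20.0 and 14.8% ± 11.4. Over all genes of the same glands the IgA shares were 82.4%, 62.5% and 81.0%. PBS-T had the lowest mean both for the family and for all genes.

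V mutations of IGHV9 clonotypes were fewer in the spleen than in LG. A clonotype's value is the mean number of V bases that differ from the germline over its sequences. In LG the mean per mouse was 0.555 at the lowest, 0.828 at the median and 2.06 at the highest in NOD-FMT, 0.683, 1.40 and 2.24 in PBS-T, and 2.13, 2.16, 2.33, 2.40 and 2.82 in NC. Every NC gland lay above every NOD-FMT gland. The NOD-FMT and PBS-T means of 1.01 ± 0.49 and 1.38 ± 0.54 overlapped (exact permutation test, adjusted p = 0.461, 0% of 10 families passed), and NC was not part of the test. The IGHV9 values rested on 12 to 41 clonotypes in NOD-FMT and 35 to 41 in NC glands. Over all genes the LG means of NOD-FMT, PBS-T and NC were 1.97, 2.27 and 2.69 mutations. There NOD-FMT glands (1.19 to 2.93) and NC glands (2.38 to 2.93) overlapped. In the spleen the IGHV9 means were 0.241 and 0.288 (exact permutation test, adjusted p = 0.849, 0% of 15 families). Within mice LG exceeded the spleen in 24 of 24, at 1.43 ± 0.69 against 0.266 ± 0.126 (sign-flip permutation test, adjusted p = 1.6e-05), as in all 11 families tested (100%). With each clonotype weighted by its counts, the difference was 0.585 mutations, against 1.168 without weights, and did not pass (adjusted p = 0.0801).

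**Figure D3:**
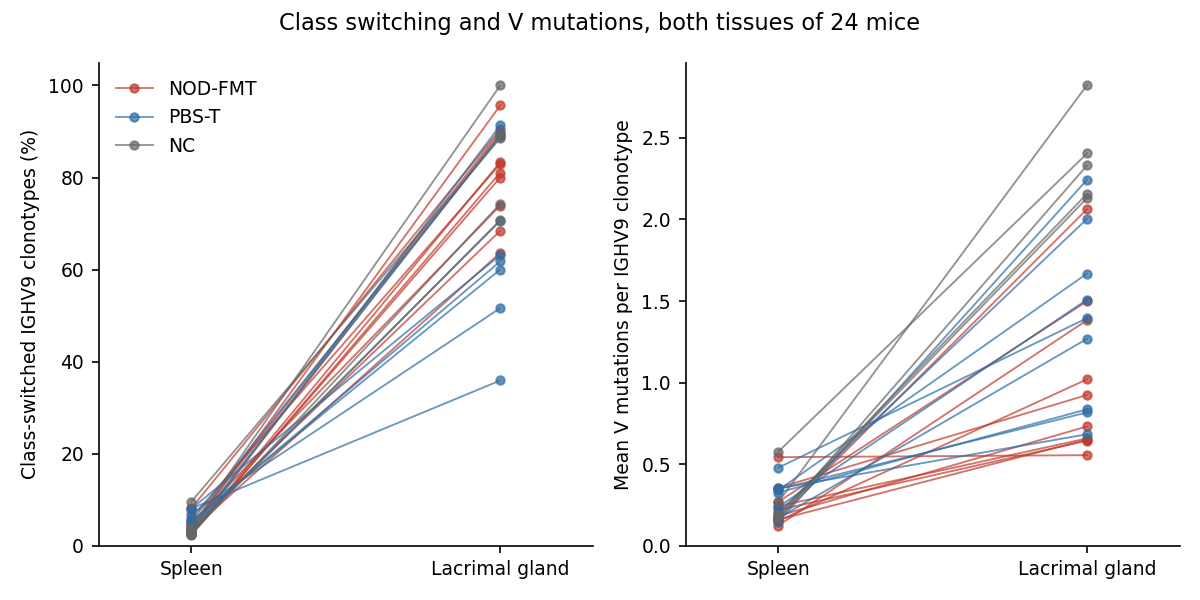
Class-switched share of IGHV9 clonotypes (percent, left panel) and mean number of V mutations per IGHV9 clonotype (right panel) in the spleen and LG of the same mouse, with 1 line a mouse coloured by group. Both measures are higher in LG in 24 of 24 mice, and the 5 NC glands lie above every NOD-FMT gland in mutations.

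Families were ranked only where at least 20 mice had at least 5 clonotypes in both tissues, which left 11. Among these IGHV9 had the lowest mean mutation number in the spleen, where IGHV8 had the highest at 1.58. It ranked 10th of the 11 in class-switched share there. In LG it was in the middle, at 6th for mutations and 7th for class switching of 11. Among the members in the spleen, IGHV9-4 had the highest pooled class-switched share (4.56%), then IGHV9-2 (4.37%), IGHV9-3 (3.81%) and IGHV9-1 (2.47%). Averaged over mice the order differed by group: IGHV9-3 led in NOD-FMT (4.55%), IGHV9-2 in PBS-T (7.42%) and IGHV9-4 in NC (5.51%), while IGHV9-1 was the lowest in each. IGHV9-2 was less often switched in NOD-FMT than in PBS-T spleens, at 3.97% ± 2.71 against 7.42% ± 2.63 (exact permutation test, p = 0.0136), but this did not pass over 94 genes (adjusted p = 0.357, 0% passed). In LG the mean over mice of the switched share was 85.2% ± 36.1 for IGHV9-2 (n = 14), 79.8% ± 14.4 for IGHV9-3 (n = 24), 76.3% ± 31.9 for IGHV9-4 (n = 22) and 49.0% ± 35.9 for IGHV9-1 (n = 22). The mean numbers of V mutations were 2.4 ± 2.0, 1.2 ± 0.72, 2.2 ± 1.5 and 1.0 ± 1.1 in the same order. Many of these glands held only a few clonotypes of a member. Pooled over glands, 90.5%, 84.0%, 88.2% and 60.3% were switched, with 2.28, 1.63, 2.69 and 1.55 mutations, and PBS-T 5 gave 832 of the 1471 clonotypes. IGHV9-1 was the least switched on either measure and in each group's mean. In mutations its mean was above that of IGHV9-3 in NOD-FMT (1.02 against 0.891) and PBS-T (1.09 against 1.002) and below it in NC (1.02 against 2.17).

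IGHJ4 pairing set the members apart in the spleen. IGHJ4 is 1 of 4 mouse heavy-chain J genes, and its part of the HCDR3 ends in the residues YAMDY. Of pooled clonotypes, 35.1% of IGHV9-4, 30.7% of IGHV9-2, 26.4% of IGHV9-3 and 19.7% of IGHV9-1 used it, against 26.4% for the family and 26.6% for all genes. Among 93 genes with at least 1000 clonotypes these were ranks 15, 25, 50 and 87, so the family as a whole was ordinary and its members lay at both sides. IGHV9-4 was above IGHV9-3 and IGHV9-1 was the lowest of the 4 in 24 of 24 spleens, and IGHV9-4 was the highest in 21. The family's value per spleen ran from 21.0% to 28.4% in NOD-FMT, from 24.2% to 27.3% in PBS-T and from 21.5% to 28.2% in NC. In LG the pooled shares were 28.8%, 34.5%, 26.6% and 20.6% in the same order of members, again with IGHV9-1 the lowest and IGHV9-4 above IGHV9-3. PBS-T 5 gave 251 of 372, 51 of 84, 474 of 884 and 56 of 131 of these clonotypes in that order. The LG means over mice were 22.9% ± 17.9 for IGHV9-4 (n = 22), 23.3% ± 30.2 for IGHV9-2 (n = 14), 23.03% ± 15.04 for IGHV9-3 (n = 24) and 33.2% ± 36.6 for IGHV9-1 (n = 22), so the place of IGHV9-1 in LG depended on whether clonotypes or mice were averaged. IGHV9-1 instead used IGHJ3 in 31.7% of its spleen clonotypes, against 18.7% for IGHV9-4, and had the shortest mean HCDR3, at 10.6 residues against 11.4 to 11.8 in the other members.

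**Figure D4:**
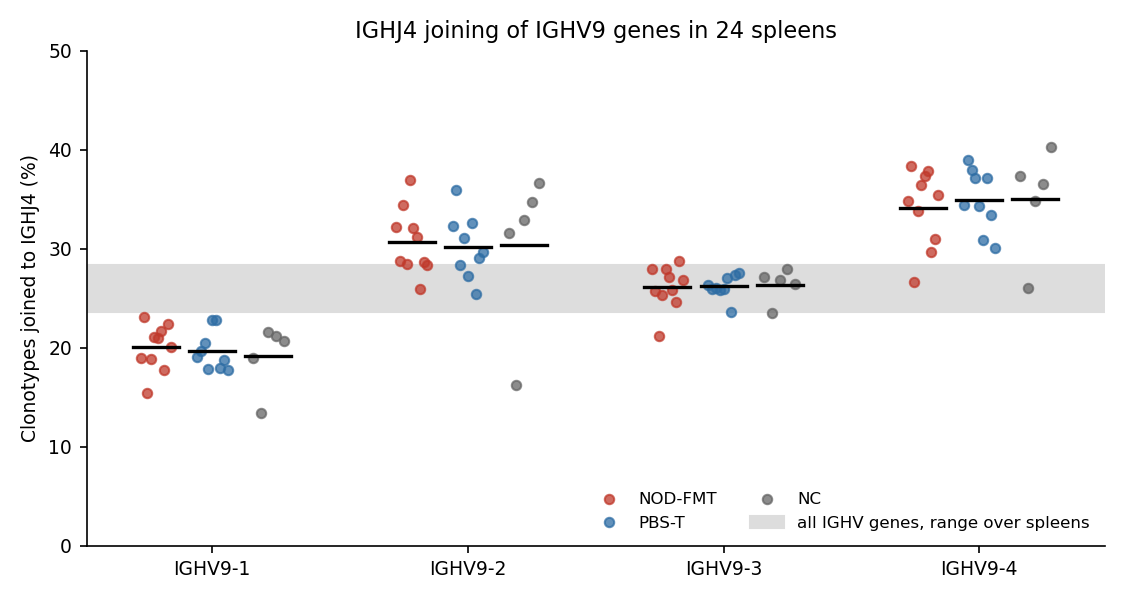
Share of spleen clonotypes joined to IGHJ4 (percent, y axis) for each IGHV9 member, with 1 point a mouse coloured by group, a line at each group's mean and a grey band for the range of all V genes over the spleens. IGHV9-1 is the lowest of the 4 in 24 of 24 spleens and IGHV9-4 lies above IGHV9-3 in 24 of 24.

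The 2 clonotypes that chose the family are IGHV9-3 joined to IGHJ4 with the HCDR3 ARLLRYAMDY or ARLLYYAMDY, which differ by 1 residue. In the deposited data ARLLRYAMDY had 67, 31, 368, 17, 96, 1, 0, 68, 2 and 82 counts in the spleens of NOD-FMT 1 to 10, 0 in each PBS-T spleen and 1 count in NC 3. ARLLYYAMDY had 115, 41, 301, 17, 179, 9, 3, 122, 34 and 1 counts in NOD-FMT 1 to 10 and 0 in each PBS-T and NC spleen. Both were low in NOD-FMT 6 and 7, and NOD-FMT 3, the deepest spleen, held the most of each. The highest shares were 0.0215% and 0.0400% of a spleen's counts, both in NOD-FMT 5. Where none was found, 3 counts of the total set the limit, which was highest at 0.00139% among PBS-T and 0.00346% among NC spleens, and for each clonotype 7 NOD-FMT spleens lay above both. These limits cover counting error only.

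**Figure D5:**
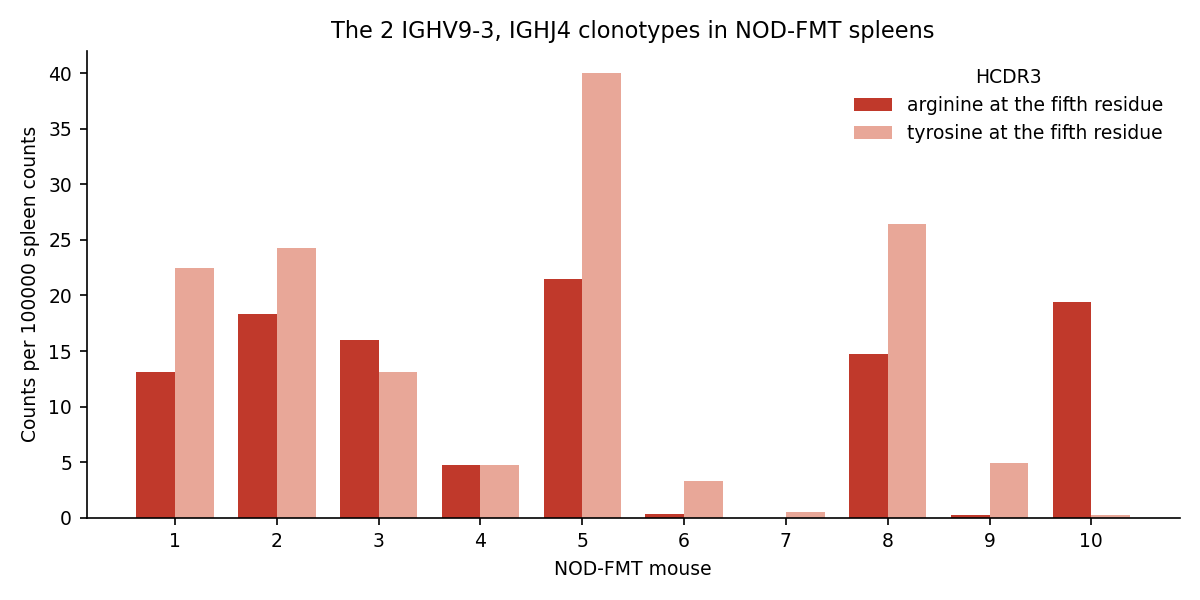
Deposited counts of the 2 IGHV9-3/IGHJ4 clonotypes per 100000 spleen counts (y axis) in NOD-FMT 1 to 10 (x axis), with ARLLRYAMDY as the dark bars (arginine as the fifth residue) and ARLLYYAMDY as the pale bars (tyrosine). NOD-FMT 5 has the highest bar of each clonotype, NOD-FMT 7 has no bar for ARLLRYAMDY, and the PBS-T and NC spleens, which are not drawn, held 1 count in all.

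The dropping of shared sequences took most counts of these clonotypes, bringing ARLLRYAMDY from 733 to 112 counts and ARLLYYAMDY from 822 to 173, each in 8 NOD-FMT spleens afterwards. The most left in 1 spleen was 46 counts of ARLLRYAMDY (NOD-FMT 3) and 62 of ARLLYYAMDY (NOD-FMT 5). Whether the dropped sequences arose in separate mice or by cross-contamination was not tested. They were the only IGHV9 clonotypes held by at least 6 spleens of 1 group and none of the others after removal. At 5 spleens or more, just outside this limit, there were 8 in NOD-FMT, 0 in PBS-T and 1 in NC, groups that differ in number of mice and in depth. Over all V genes there were 50 such clonotypes in NOD-FMT, 0 in PBS-T and 0 in NC at 6 spleens or more, a limit that NC with its 5 mice could not reach, and 174, 2 and 1 at 5 or more. IGHV9 held 4% of the 50 and 4.60% of the 174, and 4.70% of all distinct spleen clonotypes (148217 of 3154791). The number of NOD-FMT clonotypes of this kind was thus near the family's share of the repertoire.

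The same residues were spelled by several nucleotide sequences. ARLLRYAMDY had 8 versions in the deposited data, of which 7 were each in 1 spleen, and ARLLYYAMDY had 19, of which 12 were each in 1 spleen. They are shown because different codons in different mice tell separate junctions from 1 shared sequence. Germline IGHJ4 (GRCm38, GENCODE M21) comes first, then versions from the deposited data, with capitals at bases that match neither the end of IGHV9-3 nor the aligned part of IGHJ4:
IGHJ4: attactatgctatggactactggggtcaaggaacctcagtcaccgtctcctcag
ARLLRYAMDY version 1: gcaagaTTACTACGGtatgctatggactac
ARLLRYAMDY version 2: gcaagaCTACTCCGGtatgctatggactac
ARLLRYAMDY version 4: gcaagaTTGTTACGctatgctatggactac
ARLLYYAMDY version 1: gcaagaCTCCTttactatgctatggactac
ARLLYYAMDY version 2: gcaagaCTACTttactatgctatggactac
ARLLYYAMDY version 3: gcaagaCTACTAtactatgctatggactac
ARLLYYAMDY version 4: gcaagaTTACTttactatgctatggactac
ARLLYYAMDY version 15: gcaagaCTGCTGtactatgctatggactac
Version 1 of ARLLRYAMDY was in 9 spleens (8 NOD-FMT and NC 3) and held 660 of its 733 counts, while no other version held more than 27. Most counts of this clonotype were therefore 1 shared nucleotide sequence. Versions 1 to 4 of ARLLYYAMDY were in 6, 5, 4 and 3 spleens and held 262, 319, 31 and 51 of its 822 counts. The others printed were in 1 each. Of the 20 IGHJ4 bases before its tryptophan codon, 18 of the 19 ARLLYYAMDY versions kept 18 or 19, and 6 of the 8 ARLLRYAMDY versions kept 15 or 16. The printed versions of ARLLYYAMDY differ from each other within the codons for leucine, and those of ARLLRYAMDY also in the codon for arginine. The D gene called was IGHD1-1 for 94.7% of ARLLRYAMDY counts and IGHD2-1 for 42.7% of ARLLYYAMDY counts, with no D call for 39.2% of the latter.

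In the deposited data both clonotypes were mainly IgM and unmutated. IgM made up 86.9% of ARLLRYAMDY and 87.1% of ARLLYYAMDY counts, IgG2b 8.19% and 6.81%, and IgG3 2.46% and 4.74%, and 93.9% and 95.9% of counts had no V mutation. Class-switched counts were present in 7 of 9 and 9 of 10 NOD-FMT spleens that held them. In NOD-FMT 4, 12 of 17 ARLLRYAMDY and all 17 ARLLYYAMDY counts were switched. After the dropping of shared sequences, class-switched counts were present in 4 of 8 and 7 of 8 spleens. Neither clonotype was found with an IGHV9 gene in any LG.

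Neither HCDR3 was found with IGHV9-3 alone. Joined to any other V gene ARLLRYAMDY was present in 10 NOD-FMT, 9 PBS-T and 4 NC spleens over 32 genes, most often IGHV1-55 (7, 7 and 2 spleens). ARLLYYAMDY was present with 20 other V genes, in 9 NOD-FMT, 7 PBS-T and 3 NC spleens, at 58 counts in all. Clonotypes of IGHV9-3 and IGHJ4 that were 1 residue away from either HCDR3 numbered 2 to 14 in NOD-FMT spleens (median 4), 0 to 5 in PBS-T (median 1) and 0 to 4 in NC (median 2). As a share of IGHV9-3/IGHJ4 clonotypes with 10 residues the medians were 2.89%, 1.28% and 1.15%, and the ranges overlapped. For those 2 residues away the medians lay closer together, at 13.3%, 11.4% and 10.5%. These neighbours were chosen by likeness to the 2 clonotypes and carry no test.

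Other IGHV9 clonotypes recurred across groups. After removal 5.25% of distinct spleen IGHV9 clonotypes were in at least 2 mice, against 6.05% for all genes. By member the share was 5.84% for IGHV9-3, 5.74% for IGHV9-4, 3.81% for IGHV9-1 and 2.29% for IGHV9-2. The most widespread after removal was IGHV9-3/IGHJ1 ARDSNWYFDV, in 23 of 24 spleens (10 NOD-FMT, 8 PBS-T and 5 NC) with 21 to 564 counts each and a median of 126. In the deposited data it was in 10 NOD-FMT, 9 PBS-T and 5 NC spleens. With 4 HCDR3 that differ from it by 1 residue it took 5 of the 10 most widespread places, and the leading nucleotide sequence of each is shown, from the deposited counts after removal, with capitals at the base that differs:
ARDSNWYFDV: gcaagagatagtaactggtacttcgatgtc
VRDSNWYFDV: gTaagagatagtaactggtacttcgatgtc
TRDSNWYFDV: Acaagagatagtaactggtacttcgatgtc
ARDTNWYFDV: gcaagagataCtaactggtacttcgatgtc
ARDINWYFDV: gcaagagataTtaactggtacttcgatgtc
Counted from 1 at the first base, these are C2T, G1A, G11C and G11T, each a single base from the first sequence. VRDSNWYFDV was in 22 spleens, TRDSNWYFDV in 18, and ARDTNWYFDV and ARDINWYFDV in 16 each. ARDINWYFDV, with 91 counts, was in 10 NOD-FMT, 6 PBS-T and 0 NC spleens. Between 96.4% and 100% of their counts were IgM. After removal the mean number of V mutations per sequence was 2.69 for ARDSNWYFDV and 5.92 for VRDSNWYFDV, and on the same measure 1.25 for ARLLRYAMDY and 0.672 for ARLLYYAMDY. Unmutated sequences of ARDSNWYFDV were present in 19 spleens. The step that dropped shared sequences brought ARDSNWYFDV from 7716 to 3430 counts, and its part in these mutation values was not tested.

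The remaining widespread clonotypes after removal were AREPYAMDY (IGHV9-3/IGHJ4, 20 spleens), VRGGAWFAY (IGHV9-1/IGHJ3, 18), ARLLRYYFDY (IGHV9-3/IGHJ2, 17), ARDRFDY (IGHV9-3/IGHJ2) and ARNYGSSYWYFDV (IGHV9-3/IGHJ1). The order depends on the removal, since in the deposited data VRGGAWFAY was in 10 NOD-FMT, 9 PBS-T and 5 NC spleens. ARNYGSSYWYFDV was then in 10, 9 and 4. AREPYAMDY had IgA for 16.3% of its counts and IgM for 76.3%. ARLLRYYFDY, which shares its first 6 residues with ARLLRYAMDY but joins to IGHJ2, had 83.7% IgM and 9.18% IgA after removal, which took it from 1238 to 196 counts. In the deposited data it had 428, 24, 339, 50, 33, 7, 13, 164, 35 and 72 counts in the spleens of NOD-FMT 1 to 10. It was in 7 of 9 PBS-T spleens with at most 17 counts and in 5 of 5 NC spleens with 3 to 10. The groups overlapped, since NOD-FMT 6 and NOD-FMT 7 lay within the PBS-T range.

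In LG 6.75% of distinct IGHV9 clonotypes were in at least 2 mice, against 6.01% for all genes, and 4 were in at least 3 glands of 1 group. IGHV9-4/IGHJ2 ARVWDLDC was in 10 glands (NOD-FMT 4, 4 PBS-T and all 5 NC). After removal, which took it from 7068 to 1315 counts, it had 1298 in PBS-T 5 and a median of 2 over the 10, with 97.0% IgA and a median of 3.17 V mutations, and no spleen of these mice held it. IGHV9-4/IGHJ4 ARNYYGSNYDAMDY was in PBS-T 5 with 453 counts and in NC 2 to 5, 99.8% IgA and with a median of 8 mutations. IGHV9-3/IGHJ3 ARPWFAY was in NOD-FMT 1 and 3 PBS-T glands with 1 to 9 counts after removal, all IgA, and in the spleen of all 4 mice. In the deposited data it had 286 counts in NOD-FMT 1, 8, 201 and 52 in PBS-T 5, 6 and 9, and 13 in NC 4, so that removal took it from 560 to 17 counts. ARVWDLDC and ARNYYGSNYDAMDY had most of their counts in PBS-T 5, the gland that shared sequences with many others, and after removal they had 1 to 4 counts in each of the others.

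IGHV9-4/IGHJ2 ARYWSFDY was the only 1 of the 4 seen in NOD-FMT glands alone. Such clonotypes were not counted over all V genes in LG, so this is a description of 1 clonotype. It had 337 counts in NOD-FMT 2, 1 in NOD-FMT 4 and 148 in NOD-FMT 7, all IgA, and it was in the spleens of NOD-FMT 2 and NOD-FMT 7 as well. The clonotype had 3 nucleotide versions. Its leading version, which held 337 of the clonotype's 486 counts over 2 glands, is shown with capitals at bases from neither the germline V nor J end:
ARYWSFDY: gcgagaTACTGGTCctttgactac
The clonotype's mean number of V mutations lay between 0.5 and 2. In counts it reached 0.127% of a gland.

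The 3 largest IGHV9 clonotypes of single glands used IGHV9-3. ARGGTGHLYYFDY took 3.68% of the counts of NOD-FMT 5 (95% Wilson interval 3.58 to 3.79, counting error only) and ARGGTGHLYYFDF another 2.17% of the same gland. Both were joined to IGHJ2, and their leading sequences differed by 1 base, A38T from the first HCDR3 base, shown in capitals:
ARGGTGHLYYFDY: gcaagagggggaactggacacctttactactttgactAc
ARGGTGHLYYFDF: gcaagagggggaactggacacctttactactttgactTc
Together with 359 and 66 counts in the spleen of that mouse, they were IgA for 100% and 98.0% of their LG counts, in 125 and 68 distinct sequences with mean V mutations of 1.51 and 0.929. No other gland held either. In that gland the family took 7.58% of counts, most of it in this pair, whereas the median share of counts was 1.06% in NOD-FMT, 2.06% in PBS-T and 2.67% in NC. Between the members of this pair in size was IGHV9-3/IGHJ3 ARCGSNYWFAY in NOD-FMT 3, at 2.95% of counts and 100% IgA. Of the 10 largest, 9 were led by IgA. The exception, IGHV9-4/IGHJ1 ARGGGYYGLWYFDV in PBS-T 9, was 100% IgM at 1.04% of the gland's counts.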

How the data were processed

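Heavy-chain transcripts from LG and spleen were sequenced with molecular tags by the authors, who paired reads with PEAR, built consensus sequences with Clustal Omega and called genes with IgBLAST. The mm10 build is from the submitters' processing notes, and the germline release is not given in the sources used here. Each deposited record gives a count of consensus sequences for 1 nucleotide sequence, with V, D and J calls, isotype and number of V mismatches, for 1 library a file. The deposited fraction of each record in its library was not used.

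Sequences identical in more than 2 mice within a tissue were dropped, NC included, which took 9.83% of all counts in LG and 9.84% in the spleen. The rule was taken from the study's wording but removed a larger part than the study states, so it is not the authors' own step. Tests without it were an alternative. Clonotypes per V family or gene were tested with edgeR 4.0.16 in R 4.3.3 (quasi-likelihood, library size the total of clonotypes, features with a mean of at least 1 clonotype per library, Benjamini-Hochberg adjustment, threshold 0.05). DESeq2 1.42.0 was an alternative. Class switching and mutations, in families with at least 5 clonotypes, were tested with exact permutations over mice, or with 100000 sign flips within mice (Python 3.11.15, scipy 1.17.1). The usage tests were tried on simulated tables. Other scalings, filters, clonotype definitions and left-out libraries were alternatives.

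The members, lists and tests were chosen with earlier results of these data known. Named clonotypes were the 10 held by most spleens, those in at least 6 spleens of 1 treated group and no other group, those in at least 3 glands of 1 group, and the 10 with the largest share of a gland. They were chosen after shared sequences were dropped. For each member, the 3 V genes with the highest Pearson r of log2 share over spleens were named. Calls of IGHV9-2-1, IGHV9-3-1 and IGHV9S8, which the annotation used here does not hold, were kept as a separate feature among the families. Glands whose deposited tables were marked as merged were compared with the others as an alternative. Each mouse gives 1 library a tissue, and p-values measure the spread between mice. The NOD-FMT mice among them shared 1 donor pool.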

Additional observations from a re-analysis of the deposited data

Results flagged for a closer look

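Single mice that stood far from the rest of their group, by the gap to the nearest mouse over the group's range, were found in 13 of 54 groups of values. These groups share mice and overlap in what they measure, so the number was not set against a chance rate. In LG the IGHJ4 share of IGHV9 clonotypes was 61.9% in NOD-FMT 2 (next 31.8%), IGHV9-1 usage was 0.699% in NOD-FMT 8 (next 0.349%), IGHV9-3 usage was 2.99% in NOD-FMT 5 (next 2.04%), and PBS-T 5 held 832 IGHV9 clonotypes (next 39). In the spleen NC 2, one of the shallowest libraries, was far from the other 4 NC mice in 6 values. Its IGHV9 share was 2.57% (next 4.33%), with IGHV9-1 at 0.523% (next 0.744%) and IGHV9-4 at 0.306% (next 0.542%). Its IGHV9 clonotypes were 9.57% class-switched (next 3.95%) and 21.5% joined to IGHJ4 (next 27.3%), with a mean of 0.576 V mutations (next 0.267). NOD-FMT 3, the deepest spleen, held 31033 IGHV9 clonotypes (next 9301) and 1.23% IGHV9-1 (next 0.835%). PBS-T 7 had 24.2% IGHJ4 (next 25.9%).

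The IGHV9 difference between LG and spleen varied between NOD-FMT and PBS-T mice by −0.881 on the log2 scale, in the edgeR interaction test with an adjusted p of 0.00113.

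A signal also appeared in calls outside the 4 members. IGHV9-2-1, IGHV9-3-1 and IGHV9S8, genes of the family that the annotation used here does not hold, reached 1.71% of LG clonotypes in NOD-FMT and 1.85% in PBS-T mice, against at most 0.581% in NC. They made up 100 LG clonotypes with 106 counts, of which 5.88% of sequences were IgA. All 11 merged glands held them (median 0.797%) and 3 of the 13 others (highest 0.162%). The 1 NC gland with such calls was the merged one, and the part of the mark in the group values was not tested. In the spleen there were 7 clonotypes in 6 mice.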

How the results depend on the processing

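Of 147 values for the family under other settings, 120 kept direction and side of the threshold, and so did 298 of 316 with 1 library left out. The IGHV9 difference in LG between NOD-FMT and PBS-T no longer passed with clonotypes without a switched count (−0.38, a choice made after the data were seen), in counts (−0.32) or in merged glands (−0.89, where fewer libraries were tested). Against NC the same settings gave −0.36, −0.36 and −0.97, and none of these passed. The tissue interaction no longer passed in counts (−0.57), in glands not merged (−0.85), or in these without PBS-T 5 (−0.81, added after the data were seen). The tissue difference in usage was −0.16 with at least 2 counts, and that in mutations 0.585 (adjusted p = 0.0801) with counts as the weight. Class switching in LG passed when the fit held merged glands only (17.3 points). The cause of these changes was not tested.

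Some differences changed sign, and of these values 1 passed. PBS-T against NC in LG was −0.025 in DESeq2, −0.13 without PBS-T 5, NC 2 and NC 3, −0.076 in class-switched clonotypes, −0.0054 by HCDR3 nucleotides, −0.036 in counts, −0.029 in a permutation test of log2 shares, −0.080 in merged glands, −0.078 without removal and −0.094 in glands not merged without PBS-T 5. In the spleen, NOD-FMT against NC was −0.014 with at least 2 counts and −0.15 in counts, NOD-FMT against PBS-T was 0.015 in DESeq2 and 0.038 with TMM scaling, and PBS-T against NC was −0.050 in counts. Among members, IGHV9-1 against NC in LG was 0.19 without those 3 glands and 0.49 in clonotypes without a switched count, and IGHV9-3 in counts was 0.084 against NC and 0.20 against PBS-T. Between tissues IGHV9-2 was 0.40 with at least 2 counts, and IGHV9-4 was −2.78 in counts (adjusted p = 0.00112), −0.50 in merged glands and −0.10 when sequences in 2 or more mice were removed.

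With 1 library left out, LG usage ran from −1.03 to −0.88 for NOD-FMT against PBS-T (adjusted p at most 0.0017), from −1.03 to −0.88 against NC (at most 0.0109), and from −0.063 to 0.055 for PBS-T against NC. Spleen usage ran from −0.066 to 0.033, from −0.11 to 0.089 and from −0.079 to 0.12 in the same order. The interaction ran from −0.97 to −0.82 and the tissue difference from −0.62 to −0.53. Class switching in LG ran from 8.88 to 15.8 points and passed in 3 of 19 fits, with an adjusted p of 0.0371 without PBS-T 4. In the spleen it ran from −1.63 to −0.85. Mutations ran from −0.48 to −0.26 in LG and from −0.08 to −0.02 in the spleen. Between tissues switching ran from 71.2 to 74.2 points and mutations from 1.11 to 1.22. Against NC the adjusted p ran from 0.0287 to 0.239 for IGHV9-2 and from 0.0292 to 0.132 for IGHV9-4. IGHV9-4 between tissues ran from −0.019 to 0.15.

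Between mice with the same number in NOD-FMT and PBS-T, r ran from −0.320 to 0.329 in LG and from −0.557 to 0.570 in the spleen. These values rest on 9 pairs, too few to settle whether the numbers pair the mice. The labels name no pairing, so the mice were not taken as pairs. With the number as a replicate block, the LG difference was −0.93 against PBS-T (adjusted p = 0.00254), −0.95 against NC (0.0145) and −0.027 for PBS-T against NC, LG class switching differed by 14.8 points (0.0651), and IGHV9-2 and IGHV9-4 against NC did not pass (0.137 and 0.0950).

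Families called in LG numbered 0 to 7 over the settings for NOD-FMT against PBS-T, where 3 were called, 0 to 5 against NC, where 4 were, and 4 to 12 between tissues, where 7 were. At least 2 counts left too few gland clonotypes for switching and mutations. LG libraries held few IGHV9 clonotypes, with a median of 27, which limits tests of single members. Depth differed between groups, and no count of cells was used here.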
